A study of Mus musculus with 6 samples.

Results

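RNA of the mouse esophagus was set against a common reference RNA within each of 6 microarrays, and the genes that were consistently brighter or dimmer in esophagus are described here. All 6 arrays of the study were used. On every array the esophagus sample was labelled with Cy5 and the reference with Cy3, and the dyes were not swapped. The reference is Agilent's Universal Mouse Reference RNA, which the labels describe as a pool from 11 cultured mouse cell lines, without naming the tissues they came from. All mice were adult C57BL/6J. 3 arrays carried wild type samples, and 3 carried samples from K5Cre;Pax9 loxp/loxp mice, in which a Cre recombinase under a keratin 5 promoter is directed at Pax9, a paired-box transcription factor gene. The source is given as esophageal epithelium, whereas the extraction is described for esophageal tissue, with a kit for fibrous tissue. Genotype is used below only to check that a ratio holds on the arrays of both labels. The samples are called biological replicates in the labels, which do not tell the animals apart, so each p-value reflects only how far these samples spread.

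The esophagus is lined by a stratified squamous epithelium. Basal cells, attached to the matrix by hemidesmosomes, divide and carry the keratin pair of Krt5 and Krt14. As cells move up they leave the cycle, are tied together by desmosomes, switch to the Krt4 and Krt13 pair and build a cross-linked envelope from small proline-rich proteins. In the mouse the surface also cornifies, as skin does. Beneath the lining lie fibroblasts, vessels and resident immune cells, and the wall of the mouse esophagus holds striated muscle. A reference pooled from dividing cell lines is meant to give each gene a fixed denominator, which did not hold for some bright genes described below. A ratio here is the level of a gene in esophagus RNA relative to that pool, not its level against other genes.

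The values below are log2 of Cy5 over Cy3 after background correction and loess normalization, so 1 is a 2-fold excess in esophagus. The table of values deposited with the series holds the opposite ratio, reference over sample, so its signs are turned against those given here. Each array was centred on the bulk of its probes. With median centring in place of loess the median of all genes was -0.38 in place of -0.02, and with no normalization -0.85, so ratios near 0 have no settled side. 21541 genes were tested with limma, the mean over both labels against 0, with Benjamini-Hochberg adjustment over all of them. The adjusted p was under 0.05 for 16903 genes (78.5%), of which 8242 (38.3%) were higher and 8661 (40.2%) lower in esophagus. The calls were thus 48.8% on the higher side, against 32.8% with median centring and 14.5% with no normalization. 2160 genes (10%) passed the test and were over 2-fold higher on each of the 6 arrays, and 1967 (9.13%) were over 2-fold lower on each. Those genes are called high and low below, and counts in lists are to be read against these shares of all genes tested. At 4-fold on every array the counts were 1061 (4.93%) and 464 (2.15%). The balance of high and low depended on the scaling, with 1419 high and 4031 low genes under median centring and 860 and 5338 with no normalization. Over all genes tested the median of the mean log2 ratio was -0.02, the quartiles were -0.62 and 0.62, and the range ran from -7.70 to 9.38. Just inside the 2-fold rule on their weakest array were Rsl24d1 at 1.0007 and Luc7l2 at -1.0012, and just outside it Sox12 at 0.9988 and Tmem176a at -0.9996. These 4 genes stand on either side of the threshold by less than the spread between arrays.

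**Figure D1:**
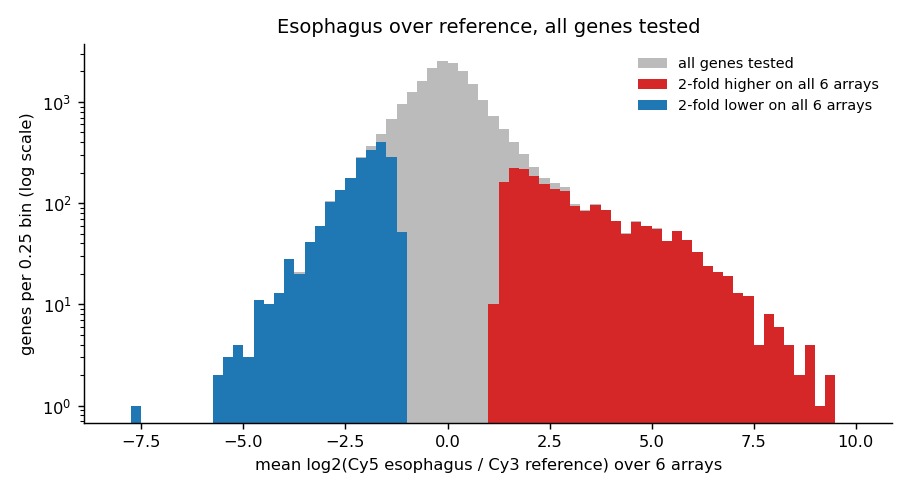
Number of genes in bins of the mean log2 ratio of Cy5 (esophagus) over Cy3 (reference), on a log scale. Red and blue mark the 2160 genes over 2-fold higher and the 1967 over 2-fold lower on all 6 arrays. The high side reaches 9.38 and the low side -7.70.

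4 genes marked the esophagus and 1 the reference. Krt4 (probe on chr15:101750158-101750736, mm9), the type II keratin of esophageal suprabasal cells, had log2 ratios of 7.20, 7.59 and 6.77 on the wild type arrays and 7.39, 6.69 and 6.71 on the arrays labelled knockout. Krt13 (chr11:99980710-99980948), its type I partner, had 7.44, 7.68 and 7.25, then 7.53, 6.84 and 6.99. Sprr3 (chr3:92261160-92261219), a small proline-rich envelope protein abundant in esophagus, had 7.23, 7.64 and 7.0, then 7.52, 6.65 and 6.66. With loess every array thus held these suprabasal genes at over 100 times the reference. Their means and SDs over 6 arrays were 7.06 ± 0.39, 7.29 ± 0.32 and 7.12 ± 0.42, or 133-fold, 156-fold and 139-fold. With median centring the means were 6.63, 6.93 and 6.71, and with no normalization 6.17, 6.47 and 6.25. The fold sizes thus depended on the scaling. Krt5, the basal keratin, had 4.11, 4.42 and 3.94, then 4.22, 3.92 and 3.87, a mean of 4.08 ± 0.21 or 16.9-fold. Its Cy3 signal was itself bright, 26673 to 30062 units above background on the 6 arrays. The limma adjusted p, by Benjamini-Hochberg, was 4.2e-08, 2.8e-08, 4.6e-08 and 5.8e-08 for these 4 genes.

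Afp, alpha-fetoprotein of fetal liver and yolk sac, marked the reference. It had log2 ratios of -3.15, -3.50 and -4.31 on wild type arrays and -3.58, -4.10 and -3.96 on the others, with a mean of -3.77 ± 0.43. Only 1 array had Cy5 well above background, and Cy5 lay at 4 to 17 units, against 1802 to 2882 units in Cy3. The background step adds an offset of 50 to both channels, which pulls the ratios of dim signals toward 0. For Afp the scanner program's own ratio was -7.09. The same holds for other genes whose dimmer channel is near background, and their sizes here are cautious ones.

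**Figure D2:**
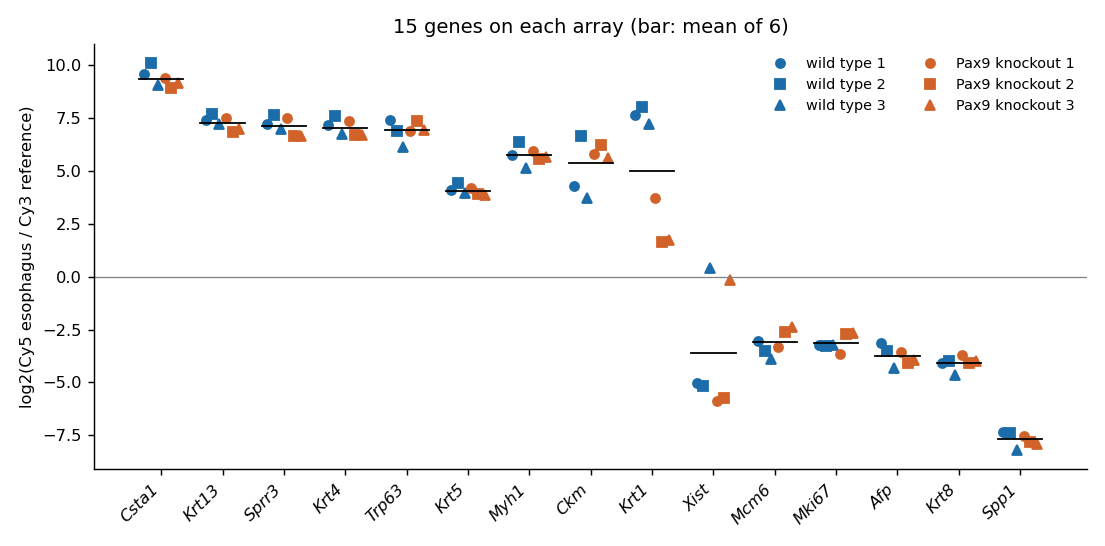
Log2 ratio of Cy5 (esophagus) over Cy3 (reference) of 15 genes on each array, with the mean of 6 as a bar. Points are blue for arrays labelled wild type and orange for those labelled Pax9 knockout, and shapes mark replicate numbers. Krt4, Krt13 and Sprr3 lie near 7 on all arrays, Krt1 splits by label, and Xist stands at 0.43 and -0.13 on the replicates numbered 3.

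For many of the brightest esophagus genes the Cy3 signal moved with the Cy5 signal. Per the labels Cy3 holds the same RNA on all arrays, so a gene's Cy3 signal would be alike on all of them. Krt1, a keratin of cornifying epithelium, had Cy5 signals of 257592, 342871 and 493207 on wild type arrays and 1958, 452 and 541 on those labelled knockout. Its Cy3 signals were 3946, 3886 and 3925, then 294, 242 and 288. Cy3 thus differed with Cy5 between the labels, but stayed level over the wild type arrays while Cy5 rose. These signals are not scaled between arrays. In Myh1, a fast skeletal myosin, Cy3 moved with Cy5 without regard to label. On the array with the highest Cy5, 283847, Cy3 was 7005, and on the array with the lowest, 3885, Cy3 was 302. Emb, which codes for embigin, had Cy5 signals from 105 to 8123, yet Cy3 stayed between 3401 and 3834. Among genes with both signals at 50 or more on all arrays, 71 had a Cy5 range of at least 16-fold, reached 5000 units and were at least 16 times brighter in Cy5 than in Cy3 on their brightest array. In these 71 the highest Cy3 signal was a median of 3.79 times the lowest (quartiles 2.17 and 8.42), and Cy3 rose by a median of 1.8% of the rise in Cy5 (quartiles 0.75% and 2.6%). The log signals of the channels correlated over the 6 arrays above 0.8 in 43 of the 71, so not all of them followed. 33 genes had as wide a Cy5 range but were under 4 times as bright in Cy5 as in Cy3. Their Cy3 range was a median of 1.38 times, against 1.43 over all 13436 genes with both signals at 50 or more. By that rule these 33, Emb among them, are bright in Cy3, so a rise of 1.8% of Cy5 would hardly change the range. Their Cy3 rise had quartiles of -6.8% and 4.4% of the rise in Cy5, so they cannot show whether Cy3 followed. For those of the 71 whose Cy3 moved with Cy5, the Cy3 value was not constant as a common reference would be. Their ratios are given as measured. The cause was not tested.

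**Figure D3:**
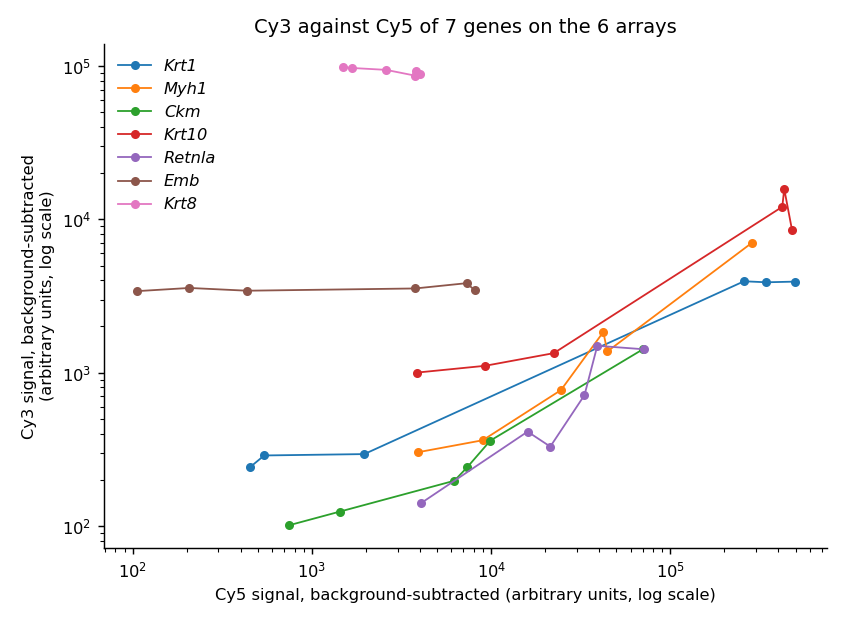
Cy3 signal (reference) against Cy5 signal (esophagus) of 7 genes, both background-subtracted in scanner units on log scales, with 1 point per array joined in order of Cy5. For Myh1, Ckm, Krt10 and Retnla the Cy3 signal climbs with Cy5. For Krt1 it is higher on the wild type arrays, where Cy5 is brightest, but level among them. For Emb it stays between 3401 and 3834.

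The genes highest in esophagus code for protease inhibitors, envelope proteins and junction proteins of a cornifying squamous epithelium. Csta1, of the stefin A family of cysteine protease inhibitors, led with 9.59, 10.10 and 9.07 on wild type arrays and 9.39, 8.95 and 9.15 on the others, a mean of 9.38 ± 0.42 or 664-fold (limma adjusted p by Benjamini-Hochberg 2.8e-08). Its relatives Cstdc5, Stfa1 and Stfa3 followed at means of 9.28, 9.15 and 8.36. The squamous serpins Serpinb3b and Serpinb3c stood at 8.80 and 8.59, and Spink5, an inhibitor of epidermal kallikreins, at 8.86. Near-identical copies exist in the stefin and Serpinb3 families, so their probes may share signal. The envelope proteins Kprp, Lce3f and Hrnr stood at 8.93, 8.70 and 8.26, the desmosomal cadherin Dsc1 at 8.82, and Gjb2, the gap junction protein connexin 26, at 8.22. Il1f5, an antagonist of interleukin 36 receptors, had a mean of 8.17. Chl1, a cell adhesion molecule known from neurons, at 8.48, and Plbd1, a phospholipase B-like protein, at 8.37, completed the 15 highest genes. No array of any of these 15 fell below 7.61, the lowest value of Il1f5.

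Suprabasal and cornification genes were high in nearly all members. Of 39 tested members of the suprabasal list 34 were high and none low, with a median of the members' means of 4.64. Rptn, the envelope precursor repetin, stood at 7.66, with array values from 7.10 to 8.32, and Calml3, a calmodulin-like protein, at 7.11. Cstb, the ubiquitous stefin B, was the lowest member at 0.16, with arrays from -0.08 to 0.57, and at -0.08 with median centring. All 22 tested cornification genes were high, with a median of 6.12, against 10% of genes tested. They include the profilaggrin-like Hrnr, the loricrin gene Lor at 7.49, and the lipid transporter Abca12 at 7.87. Cdsn, corneodesmosin, was the lowest at 4.77, with arrays from 3.8 to 5.49. Krt1 was high on all arrays yet fell into separate ranges by label, 7.25 to 8.04 on wild type arrays and 1.66 to 3.71 on those labelled knockout. Sprr2d, another small proline-rich gene, ranged from 0.90 to 6.90 over the arrays.

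Promoter sequences of these suprabasal genes are shown because they differ from those of other genes in base content and in 2 short motifs. RefSeq promoters of assembly GRCm38.p6 were searched over the 250 bases before the start. The motif TGANTCA, the palindromic site of AP-1 type factors, reads the same on both strands and was sought anywhere in them. TATAAA was sought on the gene's strand between 40 and 20 bases before the start. 28 of the 39 tested suprabasal genes matched, with 33 promoters. TGANTCA occurred in 20 of these 33 (60.6%), against 6.75% of all 32851 promoters, and TATAAA in 36.4% against 1.91%. Neither motif overlaps the other. The cornification genes, with 18 of 22 matched and 19 promoters, had TGANTCA in 10.5% and TATAAA in 15.8%. CpG dinucleotides were depleted in both groups, with a median observed over expected ratio of 0.19 for suprabasal and 0.15 for cornification genes, against 0.65 for the promoters of tested genes and 0.37 for all promoters. Among all high genes the shares were 8.61% for TGANTCA and 3.75% for TATAAA, and among low genes 4.71% and 1.53%. Several Sprr2 genes are near-copies, so their promoters are not independent, and a match is a description of these letters only. A gene with several starts is counted once per promoter, and promoters of Dmkn share the same site. The 5 windows with TGANTCA and the TATAAA window of Sprr3 follow, with the motif in capitals.
Krt13 (chr11:100120734-100120780, minus strand): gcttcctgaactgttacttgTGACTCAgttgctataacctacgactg
Rptn (chr3:93393583-93393629, plus strand): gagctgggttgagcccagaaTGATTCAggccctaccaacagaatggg
Cysrt1 (chr2:25240032-25240078, minus strand): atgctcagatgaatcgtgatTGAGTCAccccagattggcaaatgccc
Scel (chr14:103513285-103513331, plus strand): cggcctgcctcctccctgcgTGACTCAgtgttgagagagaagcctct
Krtdap (chr7:30787804-30787850, plus strand): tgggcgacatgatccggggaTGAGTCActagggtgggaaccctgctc
Sprr3 (chr3:92458728-92458773, minus strand): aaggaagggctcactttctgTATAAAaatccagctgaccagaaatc

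Krt13, Rptn, Cysrt1, Scel and Krtdap, whose motif windows are printed above, had mean log2 ratios of 7.29, 7.66, 7.02, 6.63 and 6.07. Cysrt1 codes for a cysteine-rich tail protein, Scel for the envelope precursor sciellin, and Krtdap for a keratinocyte differentiation-associated protein. None of their array values lay below 5.65, the lowest of Scel.

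Basal cell, junction and regulator genes were also high in most members. Of 22 tested basal and hemidesmosome genes 16 were high and 1 low, with a median of 2.90. Col17a1, the hemidesmosomal collagen, had 7.63, 7.61 and 6.99 on wild type arrays and 6.96, 6.96 and 6.81 on the others. Perp, a desmosomal tetraspan protein, stood at 7.12 and Trp63, the p63 factor that defines stratified epithelia, at 6.95, with arrays from 6.12 to 7.40. Sox2, a foregut and basal cell factor, was high on all arrays but differed by label, with 6.70 to 7.02 on wild type arrays and 5.69 to 5.96 on those labelled knockout. Itgb4, an integrin subunit of hemidesmosomes, stood at 4.07. Its partner Itga6 was near the reference at 0.28, and at -0.41 with median centring. Ncam1, a neural adhesion molecule, was the low member at -2.77. Of 24 tested transcription factors of stratified epithelia 22 were high, led by Zfp750 at 6.89, Pitx1 at 6.74 and Grhl1 at 6.65, all regulators of epidermal differentiation or oral epithelium.

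2 of these factors were not high. Elf3, an epithelial ETS factor, had a mean of 0.18 with arrays from -0.34 to 0.50, and of -0.75 with median centring. Gata3 stood at 0.70, 1.09 and -0.86 on wild type arrays and -2.73, -3.46 and -3.49 on those labelled knockout. All 3 values of the second set lay below all 3 of the first. Pax9 itself had 6.28, 6.13 and 5.70 on wild type arrays and 6.81, 6.78 and 6.72 on arrays labelled knockout (probe on chr12:57811169-57811228, mm9). It was thus not lower on the arrays labelled knockout. The part of the gene that the floxed allele removes is not named in the labels, so the probe may lie outside it. The difference of 0.73 had a limma adjusted p by Benjamini-Hochberg of 0.066. Everything stated by label below refers to these labels.

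Junction genes were high in 19 of 25 tested members, with a median of 3.32, and 2 were low. Cdh1, E-cadherin, had 6.32, 6.35 and 5.96, then 6.45, 6.46 and 6.52, and Dsc2, a desmocollin, stood at 5.63. Pkp2, a plakophilin of simple epithelia and heart, was opposite at -4.21, -4.47 and -5.53, then -4.66, -3.63 and -4.74, while Pkp1, the plakophilin of stratified epithelia, stood at 5.20. Cldn7, a claudin of tight junctions, was low at -2.33. Within the desmosome the plaque genes thus lay on both sides of the reference. Perp and Dsc2 are held by 2 lists each and are counted in both.

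Keratins of simple epithelia stood on the other side from those of stratified epithelia. Krt8 had -4.08, -3.97 and -4.67 on wild type arrays and -3.72, -4.10 and -3.99 on the others, a mean of -4.09 ± 0.32 or 17.0-fold lower. Its partner Krt18 stood at -4.03, and Krt19 and Krt20, further keratins of simple epithelia, at -4.08 and -3.82. All 4 were well above background in Cy5 on all 6 arrays, so they were measured in esophagus RNA as well. Krt23, grouped with them, was 112-fold higher in esophagus, at 7.22, 7.52 and 6.35, then 6.91, 6.39 and 6.46. Of the 20 tested genes of simple and columnar epithelium, 4 were high and 6 low, with a median of 0.26, and -0.08 with median centring. Besides Krt23 the high ones were Muc5ac, a secreted mucin, at 3.00, Agr2, a mucin-folding disulfide isomerase, at 2.30, and Foxa1, a forkhead factor, at 2.28.

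**Figure D4:**
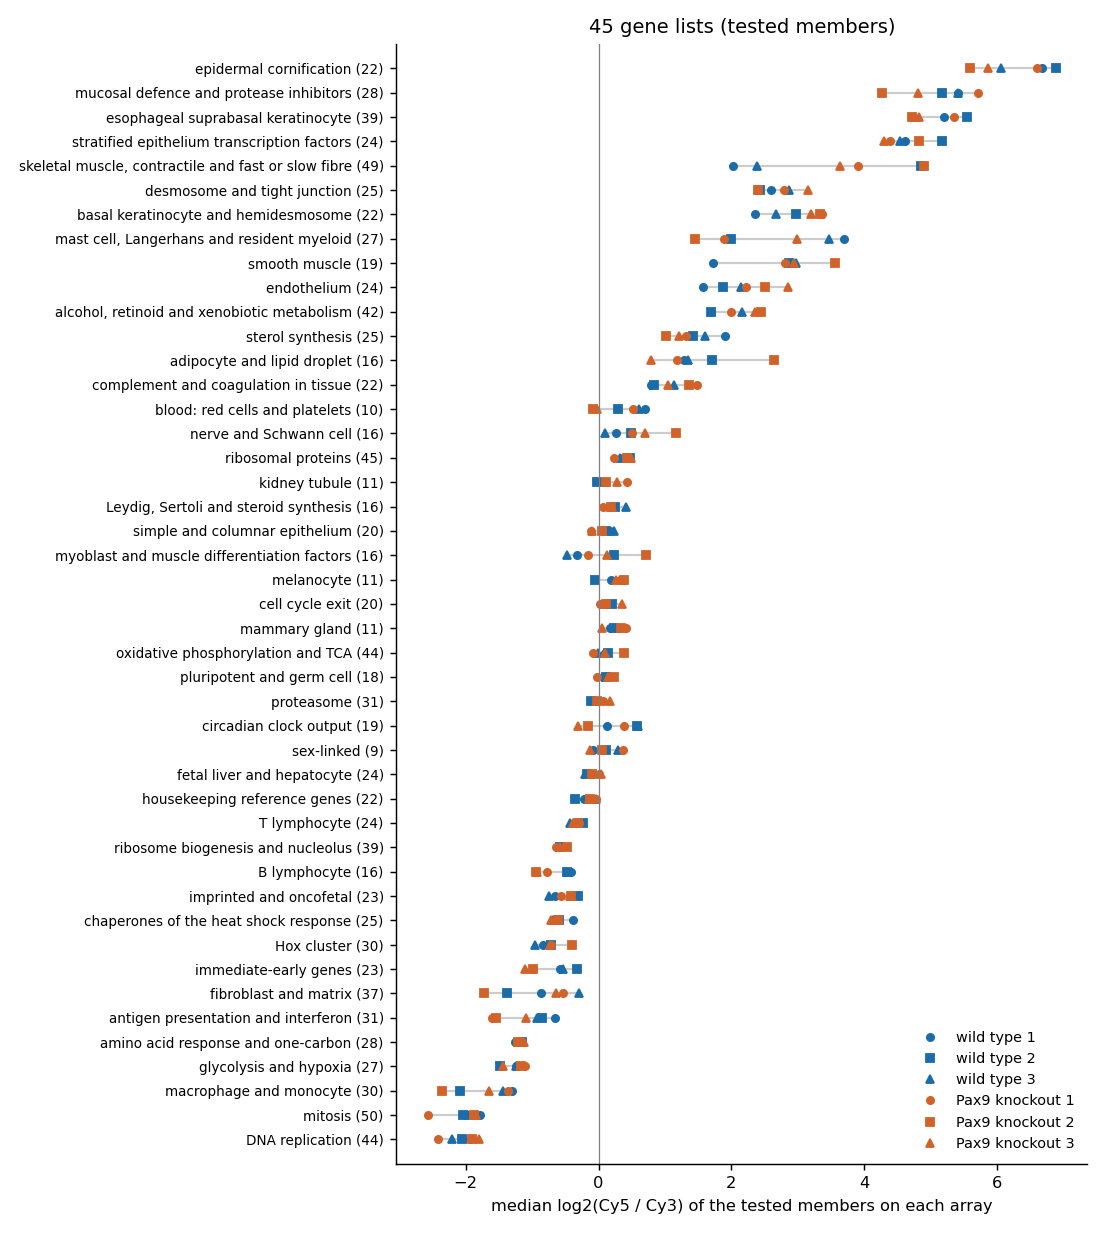
Median log2 ratio of Cy5 (esophagus) over Cy3 (reference) of the tested members of 45 gene lists on each array, with the number tested in brackets. Colours mark the labels, shapes the replicate numbers, and grey lines the range. 19 lists lie above 0 on all 6 arrays, 15 below, and 11 on both sides, and the skeletal muscle list spans 2.03 to 4.90.

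Defence genes of the mucosa were high in 20 of 28 tested members, with a median of 5.18. Serpinb3a and Serpinb12, further squamous serpins, stood at 8.02 and 7.71. S100a9, a calgranulin subunit, had 7.68, 7.34 and 6.84, then 7.98, 7.07 and 7.48, a mean of 7.40 or 169-fold. Its partner S100a8 had 2.34, 0.01 and -0.35, then 1.14, -0.26 and 0.11, and did not pass the test (limma adjusted p by Benjamini-Hochberg 0.24). Its mean was 0.50, and -0.43 with median centring. A ratio is a gene's level against the reference alone, so the partners' ratios say nothing of their levels against each other. Tslp, an epithelial cytokine, and Lcn2, an iron-siderophore binding protein, were the low members at -3.04 and -2.20. Wfdc21, a whey acidic protein inhibitor, had 8.64, 9.1 and 7.94 on wild type arrays and 6.12, 3.13 and 2.05 on those labelled knockout. Chil4, a chitinase-like protein, had the widest range of any high gene with a RefSeq symbol, at 9.04, 5.49 and 4.40, then 2.72, 1.62 and 2.78.

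The receptor and ligand of 1 cytokine axis stood apart. Il33, a nuclear cytokine of epithelia and stroma, had 1.44, 1.07 and 2.04, then 2.45, 2.35 and 2.91, and was high. With no normalization Il33 stood at 0.84 and did not pass the test (limma adjusted p by Benjamini-Hochberg 0.053). Its receptor gene Il1rl1 was among the 15 lowest genes at -4.37, -4.32 and -5.04, then -4.41, -4.49 and -4.70, or 23.5-fold lower, though Cy5 exceeded background clearly on each array. The interleukin 6 gene Il6 was not well above background in Cy5 on any array and was at least 7.58-fold lower.

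Enzymes of alcohol, retinoid and xenobiotic metabolism were high in 21 of 42 tested members and low in 1, with a median of 2.13. Ces1d, a carboxylesterase, led at 6.60 (6.04 to 7.16), followed by the aldehyde dehydrogenase Aldh3b2 at 6.21, the cytochrome Cyp2f2 at 5.92 and the alcohol dehydrogenase Adh1 at 5.57. Adh7, the alcohol dehydrogenase typical of upper digestive epithelium, had 4.12, 3.45 and 3.78, then 3.81, 4.53 and 4.51. Ces1d had 6.04, 6.12 and 6.47 on wild type arrays and 6.76 to 7.16 on the others. None of these genes differed between labels at a limma adjusted p by Benjamini-Hochberg under 0.05. Cyp2c55 was the low member at -3.57. Cyp2a5, named for its range, had 2.56, 2.78 and 4.51 on wild type arrays and 7.18, 7.54 and 7.86 on those labelled knockout.

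Cholesterol synthesis genes leaned the same way with smaller sizes. 12 of 25 were high and none low, 22 passed the test as higher, against 38.3% of genes tested, and the median was 1.5. Tm7sf2, a sterol reductase, stood at 3.91, and Sc5d, a desaturase, at 3.1. Lss, lanosterol synthase, was the lowest at -0.69, but the mean over its probes was 1.31. Srebf2, the factor that drives the pathway, stood at -0.39, and at 0.06 over its probes. Of 16 adipocyte and lipid droplet genes 7 were high and 1 passed as lower, with a median of 1.2. Cidea, a lipid droplet fusion protein, had 6.95, 7.30 and 5.81, then 6.85, 6.60 and 6.52, and Dgat2, which makes triglyceride, stood at 5.91. Adipoq, the adipocyte hormone adiponectin, lay at 0.00 with Cy5 well above background on 2 of 6 arrays.

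Skeletal muscle genes were high on the whole, by amounts that differed widely between samples. 30 of 49 tested skeletal muscle genes were high and none low, with a median of 3.74. On single arrays the median of the members ran from 2.03 on wild type 1 to 4.90 on knockout 2, and the summed Cy5 signal of the list from 108839 to 4430848 units. Ckm, muscle creatine kinase, had 4.30, 6.66 and 3.71 on wild type arrays and 5.83, 6.23 and 5.61 on the others, so wild type 2 stood with the arrays labelled knockout. Cox8b, a muscle subunit of cytochrome oxidase, spanned 3.66 to 7.37, and Myl3, a myosin light chain, 4.47 to 6.71. Tnnt1, slow troponin T, was the lowest member at -1.49, with arrays from -2.60 to 0.43. In bulk RNA, more muscle cells and more RNA per muscle cell cannot be told apart. Smooth muscle genes were high in 11 of 19, led by Myh11, its myosin, at 5.74, with Pdlim3 at 5.54 and Cnn1, calponin, at 4.79. Acta2, smooth muscle actin, lay at -0.02 with arrays from -0.95 to 0.89, and at 0.88 over its probes.

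Vessel genes were high in 14 of 24, with a median of 2.36 and none low. Lyve1, of lymphatic vessels and some macrophages, and Emcn, endomucin of capillaries and veins, both stood at 4.74, and Robo4 and Cldn5, endothelial receptor and claudin, at 4.19 and 3.57. Emcn had 4.10, 4.32 and 5.07, then 4.97, 4.58 and 5.38, which overlap between labels. Icam2, an adhesion molecule, was the lowest at -0.62.

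Fibroblast and matrix genes split. Of 37 tested, 13 were high and 11 low, with a median of -0.95. The highest was Lum, lumican, which had 6.40, 4.46 and 6.22, then 5.58, 4.34 and 6.06. Col14a1 stood at 4.38, Mfap4 at 4.29, and Dpt, dermatopontin, at 4.15. The low ones were led by Lox, lysyl oxidase, at -4.48, Cxcl12, a stromal chemokine, at -3.71, Vim, vimentin, at -2.99, -3.76 and -2.06, then -3.21, -4.10 and -3.26, and S100a4 at -3.07. Lum was lowest on the replicates numbered 2 of both labels, where Vim was also lowest.

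Immune genes split between the lists. Of 27 genes of mast cells, Langerhans cells and resident myeloid cells, 15 were high and none low, with a median of 2.82. Ccl6, a chemokine, stood at 6.43, Retnla, a resistin-like protein of alternatively activated macrophages, at 6.40, and the MHC class II genes H2-Aa and H2-Ab1 at 4.81 and 4.23. Cd207, langerin of Langerhans cells, had 5.56, 4.70 and 4.34 on wild type arrays and 1.2, 1.25 and 2.09 on those labelled knockout. Of 30 general macrophage and monocyte genes, none was high and 15 were low, with a median of -1.58. That list does not hold Retnla, Lyve1 or the complement genes C1qa, C1qb and C1qc. The last 4 stood in other lists at 4.74, 3.93, 3.06 and 4.22, so the list does not speak for all genes of macrophages. Spp1, osteopontin, was the lowest gene of all, at -7.34, -7.41 and -8.19, then -7.53, -7.84 and -7.92, a mean of -7.70 ± 0.33 or 208-fold lower (limma adjusted p by Benjamini-Hochberg 2.9e-08). Clec4d, a myeloid lectin, and Ccl4, a chemokine, stood at -5.0 and -4.54. Ptprc, the pan-leukocyte marker CD45, was 20.4-fold lower at -4.35, with arrays from -5.34 to -3.74.

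Lymphocyte genes were more often low than high by the 2-fold rule. Among 16 B cell genes 4 were low and 1 high, and among 24 T cell genes 8 were low and 1 high. The shares over all genes tested were 9.13% low and 10% high. The medians were -0.56 for B cell and -0.26 for T cell genes. A probe could be tested through Cy3 alone, and 1 gene of each list was not well above background in Cy5 on any array. With both channels required to be above background, the T cell median was 0.04, so its side depended on the filter. Ms4a1, the B cell marker CD20, stood at -4.58, Cd79b, part of the B cell receptor, at -4.52, Tcf7, a T cell factor, at -3.56, and Lck, a T cell kinase, at -3.25. Ighm, the heavy chain of IgM, was the high B cell gene at 1.95, and Bcl11b, a factor of T cells and of keratinocytes, the high T cell gene at 2.18. The antigen presentation and interferon list had 13 of 31 low and none high, with a median of -0.95. B2m, the light chain of MHC class I, had -2.5, -2.87 and -1.98, then -3.28, -3.47 and -3.14, and Ifi44, Rsad2 and Bst2, interferon-induced genes, stood at -4.30, -3.09 and -3.06. H2-D1, a class I heavy chain, stood at 0.68.

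**Figure D5:**
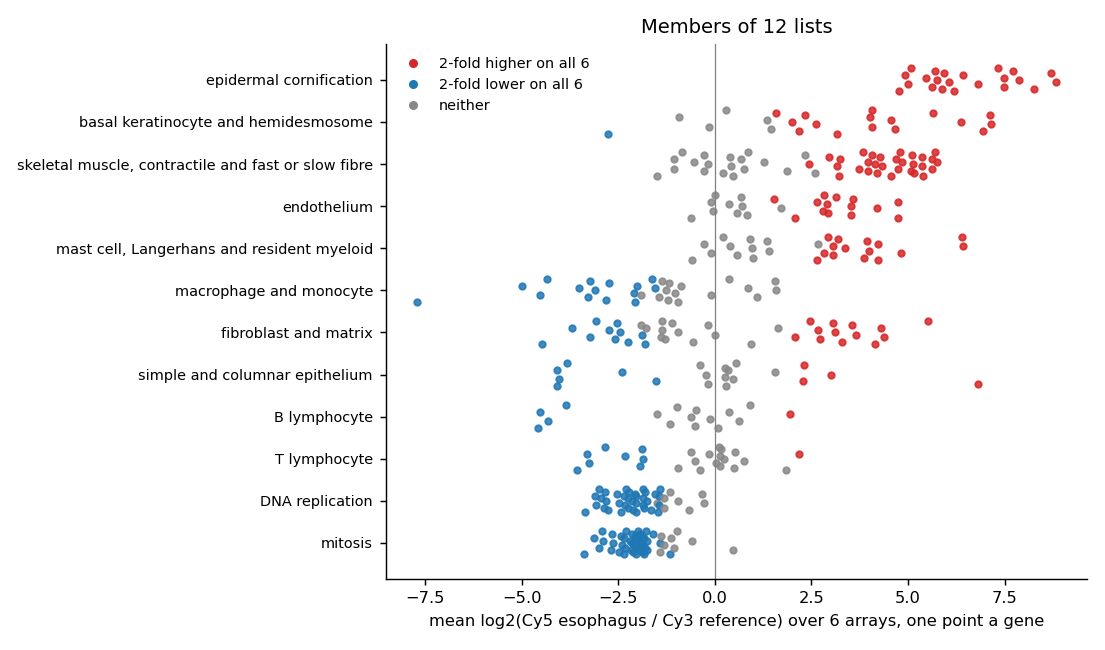
Mean log2 ratio of Cy5 (esophagus) over Cy3 (reference) over 6 arrays for the tested members of 12 lists, 1 point per gene, spread vertically so that points do not overlap. Red marks genes over 2-fold higher and blue over 2-fold lower on all 6 arrays. All 22 cornification genes are red, 36 DNA replication and 42 mitosis genes are blue, and the fibroblast list holds 13 red and 11 blue genes.

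Proliferation genes were the most uniform group on the low side. All 44 DNA replication genes passed the test as lower, 36 were low by the 2-fold rule against 9.13% of genes tested, and the median was -2.04. Uhrf1, which carries methylation through replication, stood at -3.37, and Mcm6, a helicase subunit, had -3.03, -3.49 and -3.87, then -3.33, -2.60 and -2.37. Prim2, a primase subunit, was nearest to the reference at -0.28. Of 50 mitosis genes 49 passed as lower and 42 were low, with a median of -2.01. Ncapg, a condensin subunit, stood at -3.40, and Mki67, the proliferation marker Ki-67, had -3.23, -3.27 and -3.21, then -3.66, -2.70 and -2.65. Bub1, a checkpoint kinase, was the single member above the reference, at 0.47 with arrays from 0.19 to 0.63. Its side was not stable, at -1.73 over its probes and -0.45 with median centring. Cyclin-dependent kinase inhibitors and other exit genes showed no common side, with 2 of 20 high, 1 low and a median of 0.14, which was -0.65 with median centring. Tob1, an antiproliferative factor, stood at 3.29, and Cdkn2a, the tumour suppressor locus often altered in cell lines, at -2.30.

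Promoters of the proliferation genes are shown because they carry motifs other than those of the suprabasal genes. TTTGAA and TTCGAA, forms of the cell cycle homology region, were sought on both strands of the same 250 bases, as were CCAAT and the E2F-type octamers TTTCGCGC and TTTGGCGC. The octamers can overlap on opposite strands, as in the Mcm5 window. 42 of 50 mitosis genes matched, with 45 promoters, and TTTGAA or TTCGAA occurred in 21 of them (46.7%), against 17.1% of all promoters. CCAAT occurred in 37 (82.2%), against 33.8%. Genes are counted once per promoter here too, and the promoters of Bub3, as those of Ect2, share the same TTTGAA site. 37 of 44 DNA replication genes matched, also with 45 promoters, and an E2F-type octamer occurred in 7 (15.6%), against 0.654%, and CCAAT in 57.8%. TATAAA at its position and TGANTCA occurred in none of the promoters of either group. The median CpG observed over expected ratio was 0.81 for mitosis and 0.80 for replication genes, against 0.65 for the promoters of tested genes and 0.37 for all promoters. The 18 promoters of housekeeping reference genes had a ratio of 0.89, CCAAT in 50%, TTTGAA or TTCGAA in 22.2% and TATAAA in 11.1%. They held no octamer and no TGANTCA. Among all low genes the shares were 36% for CCAAT, 15.2% for TTTGAA or TTCGAA and 1.59% for the octamers. 4 mitosis windows and 2 replication windows follow on GRCm38.p6, with the motif in capitals.
Ncapg (chr5:45669871-45669924, plus strand): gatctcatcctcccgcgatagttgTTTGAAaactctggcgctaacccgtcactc
Mki67 (chr7:135716466-135716519, minus strand): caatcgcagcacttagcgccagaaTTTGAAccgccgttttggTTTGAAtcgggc
Cdk1 (chr10:69352954-69353007, minus strand): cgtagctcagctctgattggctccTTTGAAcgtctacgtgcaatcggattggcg
Espl1 (chr15:102296242-102296292, plus strand): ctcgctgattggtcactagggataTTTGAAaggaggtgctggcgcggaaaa
Mcm6 (chr1:128359788-128359835, minus strand): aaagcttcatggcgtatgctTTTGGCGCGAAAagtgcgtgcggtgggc
Mcm5 (chr8:75109336-75109383, plus strand): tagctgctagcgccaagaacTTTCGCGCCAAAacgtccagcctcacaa

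Ncapg, Mki67, Cdk1 and Espl1 of these windows had mean log2 ratios of -3.40, -3.12, -2.0 and -2.05, and Mcm6 and Mcm5 had -3.11 and -1.82. Cdk1 is the mitotic kinase and Espl1 the protease separase. Every array value of the 6 genes lay below -1.

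Glycolysis, amino acid and ribosome biogenesis genes leaned to the reference. Over all genes tested 9.13% were low and 10% high, while 40.2% passed as lower and 38.3% as higher. 11 of 27 genes of glycolysis and the hypoxia response were low and 1 high, with Ero1a, Ndrg1, Slc16a3 and P4ha1 at -2.65, -2.64, -2.36 and -2.35, and Egln3, an oxygen sensor, at 1.72. 10 of 28 genes of the amino acid response were low and 2 high, with Mthfd1l, a mitochondrial folate enzyme, at -3.81 and Cbs, cystathionine synthase, at 2.61. 6 of 39 ribosome biogenesis genes were low, and 29 passed as lower, with Ncl, nucleolin, at -1.83. None of 45 ribosomal protein genes was high or low, their median was 0.42, and 28 passed as higher. None of 31 proteasome genes was high or low, with a median of 0.01, and -0.42 with median centring. Of 44 genes of oxidative phosphorylation and the TCA cycle 1 was high, Ogdh at 1.35, with a median of 0.13, and -0.14 with median centring. Chaperones split, with the inducible Hspa1a at 5.88 and Hspb1 at 4.81, and the mitochondrial Hspa9 at -1.59. Hspa1a had 7.56, 7.29 and 5.95 on wild type arrays and 4.72, 5.05 and 4.68 on the others.

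Housekeeping reference genes, which had no special part in normalizing these arrays, were not all near the reference. None of 22 was high and 5 were low. Gusb, a lysosomal enzyme, had -3.31, -3.36 and -2.84, then -3.12, -3.51 and -3.31, and B2m stood at -2.88. Eif4a2, Pgk1 and Tubb5 stood at -1.80, -1.68 and -1.52. Hprt, at 1.27, and Ywhaz, at 1.13, were the highest, each just missing 2-fold on 1 array. Tfrc, the transferrin receptor, lay near the reference at 0.04, and at -0.80 with median centring.

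Hox genes, which record position along the body axis, leaned to the reference. Of 30 tested, 9 were low and 1 high, against 9.13% and 10% of genes tested, with a median of -0.70. Hoxc5 was the high one, at 2.14, 2.20 and 2.93, then 2.48, 2.12 and 2.5, and Hoxa4 followed at 1.63. Hoxc9 was the lowest, at -3.82, -4.25 and -5.05, then -4.55, -4.71 and -4.73, with Hoxa11 at -3.41, Hoxb7 at -3.11 and Hoxc10 at -3.02. Hoxa11 and Hoxa10 were not well above background in Cy5 on any array and were at least 10.6-fold and 7.35-fold lower. Their probes were tested through Cy3 alone. Oncofetal genes were low in 6 of 23 and high in 3, with Hmga2, a chromatin protein, at -4.05, Igf2bp3 and Igf2bp2, RNA-binding proteins, at -4.01 and -3.84, and Gpc3, a glypican, at 5.51. Rhox5 and Tex19.1, germ line genes, stood at -5.08 and -3.06. The list of pluripotent and germ cell genes had no common side, with 3 of 18 tested low, none high and a median of 0.12.

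Genes measured in 1 channel only give bounds. 59 tested genes were well above background in Cy5 on all arrays and in Cy3 on none, 22 of them high, and 804 the reverse, 35 of them low. Such bounds set the brighter mean against, on each array, the higher of the lowest signal counted as above background and the dim probe's own value, and are open to dye bias without a swap. For the genes low in esophagus named here the probe's own value was the higher, so their bounds equal the fitted folds. Trpv3, a warmth-gated channel of keratinocytes, was at least 29.1-fold higher in esophagus, Cldn8, a claudin, at least 14.8-fold, and Slc9a3, a sodium-proton exchanger, at least 14.5-fold. On the other side Rhd, a red cell antigen, was at least 7.15-fold lower and Ifi44l, an interferon-induced gene, at least 7.20-fold lower.

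The remaining genes among the 15 lowest were measured in both channels. Cxcl1, a neutrophil chemokine, had -4.76, -5.0 and -5.66, then -5.44, -5.51 and -5.36. Msln, mesothelin, stood at -5.27, Mmp3, a matrix metalloprotease, at -4.85, Syt13, a synaptotagmin, at -4.79 and Prkg2, a cGMP-dependent kinase, at -4.71. Rpl39l, a ribosomal protein copy, at -5.31 and Xlr, an X-linked lymphocyte-regulated gene, at -4.53 complete the 15 lowest with those named above.

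Some stretches of the genome held mostly high genes, by the probe positions on mm9. Of 788 windows of 1 Mb with at least 10 tested genes, 4 held at least as many high genes as others and 4 at least as many low genes. The window on chromosome 3 from base 92000001 held 29 high genes among 32, with a median of 5.03, and spans Sprr, Lce, Ivl and Kprp of the epidermal differentiation complex. The others were on chromosome 18 from 20000001, with 8 of 11 and all of them desmosomal cadherins, on chromosome 8 from 95000001, with 8 of 13 and 5 carboxylesterases, and on chromosome 3 from 10000001, with 5 of 10 and 3 fatty acid binding proteins. Windows of low genes included immunoglobulin loci, on chromosome 6 from 70000001 with 10 of 19 and on chromosome 12 from 116000001 with 9 of 17, where probes of near-identical segments may share signal. Genes of a cluster share ancestry and sequence, and windows with several copies of a gene are not made of independent genes.

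The esophagus channel varied more between arrays than the reference channel. Over the arrays of a label the median SD was 0.254 in Cy5 and 0.085 in Cy3, and Cy5 had the larger SD in 94.7% of genes. That share takes in the genes whose Cy3 followed Cy5. For the 15 highest genes the median SD of Cy3 was 0.454. Correlations of the log2 ratio over genes, given as a description since genes are not independent replicates, were 0.915 to 0.966 between arrays of a label and 0.852 to 0.918 between labels. Spryd4 and Zbtb7a were the steadiest high genes with a RefSeq symbol, with arrays from 1.02 to 1.14 and from 2.36 to 2.55. With median centring Spryd4 stood at 0.16 and did not pass the test.

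Ratios to the reference held on both labels for most genes. 2666 genes were 2-fold higher on all 3 wild type arrays and 2933 on all 3 labelled knockout, and 2160 on both, which is 81.0% and 73.6% of these lists. For lower genes the counts were 2453, 2637 and 1967, or 80.2% and 74.6%. 2 genes were 2-fold lower on all wild type arrays and 2-fold higher on all others. Emb had -1.44, -2.35 and -2.05, then 1.2, 2.04 and 1.72, and 0610040J01Rik, an uncharacterized gene, had -1.31, -1.35 and -1.62, then 1.01, 1.46 and 1.73. Their differences between labels were 3.6 and 2.83, with limma adjusted p by Benjamini-Hochberg of 0.0055 and 0.004, among 1095 genes (5.08%) past that threshold. Arrays of each label lay on a slide of their own, so label and slide cannot be told apart.

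Replicate 3 of both labels stood apart in sex-linked genes. Xist, the RNA that coats an inactive X chromosome, had Cy5 signals of 10183 on wild type 3 and 4965 on knockout 3, and of 7 to 15 on the other 4 arrays. Eif2s3y, a Y-linked gene, had the reverse, 2 and 1 on these and 1302 to 3979 on the rest. Sex is not given in the labels. Leaving out both replicates numbered 3, a check chosen after these values were seen, gave 2336 high and 2166 low genes over the 4 arrays left.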

How the data were processed

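Each of the 6 files is the scanner output of a 2-colour Agilent array of design 014868. Per the file headers it was made with Agilent Feature Extraction 10.7.3.1, whereas the submitters' processing notes name version 9.1. The deposited columns used hold intensity per spot and local background, with no normalization by the authors, and a log10 ratio of Cy5 over Cy3 after the program's own background and dye correction, per the file headers. The deposited matrix holds log2 ratios that equal the negative of that ratio within 0.001 on all 32079 tested probes, whose making neither the labels nor the headers describe.

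Intensities were background-corrected with normexp (offset 50) and normalized by loess within arrays, with control spots at weight 0, in limma 3.58.1 under R 4.3.3. Outlier spots, 55 to 164 per array, were set to missing. A probe was tested if Cy5, or Cy3, was well above background on all 6 arrays, and a gene was represented by its brightest tested probe. Of 41174 probes 27005 were named by accession and 5821 by name or synonym from RefSeq, and 8348 kept the name in the files. Each gene's mean over both labels was tested against 0, two-sided, with Benjamini-Hochberg adjustment and a threshold of 0.05. On simulated data of 21541 genes, 85% of 100 genes shifted by 1 log2 unit and 94% of 100 shifted by 2 were recovered. There all other genes had no shift and noise was independent between genes, without dye bias. In the data 78.5% of genes were called, so these shares do not give the recovery of the calls above.

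Median signals per array were 56 to 159 units in Cy5 and 202 to 269 in Cy3, and 67.3% to 77.3% and 81.8% to 84.9% of probes were well above background. The number of arrays limits the precision. Dye bias of single probes could not be removed without a dye swap. The main fit did not pair arrays, and an alternative model paired them by replicate number. Deviations from the label mean correlated over genes at 0.17, 0.49 and 0.33 between same-numbered arrays. Between arrays of unlike number the correlations ran from -0.46 to 0.15. Replicate number and position on the slide go together, so they cannot be told apart. Alternatives changed the normalization, background, ratio source, filter, probe rule, model and arrays.

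The genes and the 45 lists were chosen with earlier results of these data known. Named are the markers, the 15 highest and 15 lowest genes, the genes brightest in 1 channel only and the housekeeping reference genes. Each list's 4 highest, 4 lowest and widest member are named too, with genes opposite between labels and the widest and narrowest high genes. The highest, lowest, 1-channel, widest and narrowest genes were sought among genes with a RefSeq symbol only. Adh7, Cd207, Cdk1, Ckm, Cysrt1, Espl1, Fos, Il33, Itgb4, Ivl, Krt14, Krtdap, Lor, Luc7l2, Mcm5, Pax9, Pkp1, Rsl24d1, S100b, Scel, Sox12 and Tmem176a were named after their values were seen. Some genes these rules name are not reported here.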

Additional observations from a re-analysis of the deposited data

Results flagged for a closer look

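15 of 209 genes named in the text (7.18%) differed between the arrays labelled wild type and those labelled Pax9 knockout, by the limma difference between labels with an adjusted p by Benjamini-Hochberg under 0.05. The share was 5.08% over all genes tested. Some of the 209 were named for opposite sides between labels or for a wide range over the arrays. The shares can therefore not be set against each other. Each label has 3 arrays on a slide of its own, so label and slide cannot be told apart, and no explanation was tested. The differences below are the mean on arrays labelled knockout minus the mean on wild type arrays, on the log2 scale.

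Krt1 differed by -5.28, the largest of them, from a mean of 7.65 to 2.37, Wfdc21 by -4.79 and Sprr2d by -3.76. In all 3 genes every array labelled knockout lay below every wild type array. Cyp2a5, a cytochrome, differed by 4.24, from 3.28 to 7.53. Cd207 of Langerhans cells differed by -3.35 and the factor Gata3 by -3.54, and Sox2 by -1.04 within a range that stayed high on all arrays. Emb and 0610040J01Rik changed sides, with differences of 3.6 and 2.83.

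The heat shock gene Hspa1a differed by -2.12, and the immediate-early genes Fos and Ccn1 by -1.82 and -1.14. Smaller differences were those of Xlr at -0.78, Cxcl12 at 0.74 and Ndrg1 at 0.69, each of which was low on all 6 arrays.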

How the results depend on the processing

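The main counts were 8242 higher, 8661 lower, 2160 high and 1967 low genes. Median centring gave 5430 higher, 1419 high and 4031 low genes, and no normalization 2346, 13799, 860 and 5338. The program's own log ratio and the deposited matrix with its sign turned each gave 3795 low genes. Testing against 2-fold left 2567 higher and 2234 lower, and 4-fold on all arrays 1061 and 464. The median SD of Cy3 was 0.151 with median centring. Leaving out 1 array gave 7665 to 8005 higher, 8075 to 8415 lower, 2193 to 2290 high and 2024 to 2111 low genes. With the replicate block, which pairs arrays by number, 8354 genes were higher and 8706 lower, and no named gene lost its call. Of the 45 list medians 6 changed sign with median centring and 13 with no normalization, among them cell cycle exit (-0.65 and -1.11) and, with no normalization, nerve (-0.05), steroid synthesis (-0.39) and mammary gland (-0.39). The T lymphocyte median was 0.04 where both channels had to be above background. Of 209 named genes 7 and 12 changed sign under these scalings. With median centring Bub1, Elf3, Itga6 and Tfrc were among them, at -0.45, -0.75, -0.41 and -0.80. With no normalization they stood at -0.91, -1.21, -0.87 and -1.26, H2-D1 at -0.10, Ogdh at -0.02, Rsl24d1 at -0.01, S100a8 at -0.89, S100b at -0.11 and Spryd4 at -0.30. Averaging the probes of a gene turned Acta2 to 0.88, Bub1 to -1.73, Lss to 1.31 and Srebf2 to 0.06. The causes were not tested. Ratios of probes near background are limited by the offset.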

Other observations

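Complement genes stood apart from the general macrophage genes that low ratios marked. 9 of 22 tested complement and coagulation genes were high and 1 low, with a median of 1.16. C1qa, C1qb and C1qc, the subunits of the C1q initiator, had means of 3.93, 3.06 and 4.22, and Serping1, the C1 inhibitor, had 5.41, 4.78 and 4.72 on wild type arrays and 5.42, 4.60 and 4.94 on the others. Among immediate-early genes 5 of 23 were low and 1 high. Fos, an AP-1 subunit, had -1.28, -1.04 and -1.76, then -2.49, -3.28 and -3.78, and Fosl1, another subunit, stood at -2.69. Ccn1, a secreted target of growth signals, stood at -3.80 and Klf2 at 1.78.

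5 of 19 clock genes were high, among them the nuclear receptors Rora and Nr1d1 at 2.86 and 2.17. Per2, a clock repressor, had -0.67, 0.58 and 1.27, then -0.84, -1.29 and -1.65. Among liver genes Fetub, fetuin B, was high at 6.76 while Dlk1, a fetal growth gene, was low at -3.86, and Phlda2, an imprinted growth gene, stood at 4.81. Rab38, a pigment granule GTPase, was high at 5.86 and Elf5, a factor of mammary and squamous epithelium, at 6.18. S100b, a calcium-binding protein of glia, stood at 3.48 on knockout 2 and between 0.00 and 1.09 on the other 5 arrays. Of 845 tested genes on chromosome 15, 137 (16.2%) were low, against 9.13% of all genes tested. Their median was -0.30, with single arrays from -0.35 to -0.28. No explanation of these values was tested.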
